A study of Arabidopsis thaliana with 12 samples.

Results

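The subject is what 1 day of auxin changed in the hypocotyls of 35-day-old Arabidopsis thaliana plants, taken as 3 arrays with auxin minus 3 arrays without it, 6 of the 12 arrays of the series. All 22746 non-control probe sets of the array entered the comparison, and genes are named only for the 13513 probe sets that the array annotation pairs with exactly 1 gene. The hypocotyl is the stem below the seed leaves. The other 6 arrays hold 7-day-old hypocotyls with and without auxin, and they are used here to ask where the older tissue responded differently. They also entered the shared estimate of the spread, and so the standard errors and calls of the mature comparison.

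All plants were of the ecotype Col-0 and had grown on full-strength MS, a mineral salt medium. The mature auxin group comprised 35-day plants with auxin for 1 day, and the mature untreated group 35-day plants without it, with 3 biological replicates each per the labels. The young auxin and young untreated groups differed from these only in their age of 7 days, as far as the labels say. The labels name neither the auxin nor its dose, and they do not say whether untreated plants were kept for the same day. RNA came from whole hypocotyls, so a lower signal from fewer cells of a type and one from less RNA per cell cannot be told apart.

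Auxin is sensed in the nucleus by TIR1/AFB receptors, which mark AUX/IAA repressors for destruction and so free auxin response factors (ARF) to act on their targets. Among these targets are the AUX/IAA genes themselves, the GH3 genes, whose enzymes attach amino acids to auxin and so lower its active pool, and LBD genes, whose transcription factors act in lateral root initiation and in callus formation. Callus is a mass of dividing cells that plant tissue forms on auxin-rich medium. In hypocotyls it is known to arise largely from cells around the vasculature that follow a lateral root programme.

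Every value below is a log2 value relative to the median of its probe set over the 12 arrays, because the deposited table is centred in that way. Differences between arrays can be read from it and absolute levels cannot, so no gene is called strongly or weakly expressed. Log2 fold changes are mature auxin minus mature untreated, with the standard error (SE) of the limma fit and n = 3 arrays per group. A probe set is called, and is said to have risen or fallen, at a Benjamini-Hochberg adjusted p under 0.05 over the 22746.

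The arrays of the mature auxin group correlated with each other at 0.910 to 0.956 across probe sets, and those of the mature untreated group at 0.937 to 0.950 (probe sets are not independent replicates). Some control signals differed between the mature groups or among the arrays of a group. The bioC spike-in, a bacterial transcript added to each sample, had a 3′ signal of −0.03, 0.03 and 0.14 on the mature auxin arrays, against −1.62, −1.61 and 0.47 on the mature untreated arrays. The control that differed most, an Arabidopsis control probe set of the array, had −0.17, −0.41 and −0.33 with auxin, against 4.09, 3.71 and 1.64 without it. The 25S ribosomal RNA control lay at 1.20, 1.06 and 1.35 with auxin, against −2.46, −2.22 and −1.06 without it. The cre spike-in, also added to each sample, had a 5′ signal of −0.43, −0.37 and −0.26 with auxin, against 0.26, 0.30 and 0.27 without it. This difference (−0.63) is larger than some called changes reported below, such as that of GH3.9 (−0.29). The bioB spike-in overlapped between the groups. The part of these signals in the results was not tested. A fit without the arrays of low bioC signal (arrays 1 and 2 of both untreated groups) cannot decide it. It keeps every auxin array and mature untreated array 3, so most signs were likely to stay. Of the 13632 probe sets called in the full fit 13630 kept their sign. On that untreated array the 25S, cre and Arabidopsis control signals still lay outside the range of the auxin arrays. That fit leaves 1 mature untreated array, whose spread is taken from the other groups.

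The tissue label could not be checked, because the centred values show only differences between arrays. Cell type markers are given as changes with auxin. Of 63 marker genes of 9 cell types and organs, 8 were found by name on a probe set of their own. None of the phloem, xylem, flower or seed markers was found in this way. Markers that the annotation gives under a locus or another name would have been missed. Between the 2 mature groups 4 of the 8 fell and 0 rose (limma). RCA and PRK, photosynthesis genes of green tissue, fell most (−5.23 ± 0.14 and −5.16 ± 0.16). FACT, a suberin gene of the periderm, had 1.85, 2.15 and 1.80 on the auxin arrays and 2.49, 2.38 and 2.42 on the untreated arrays (−0.50 ± 0.11, SE). FMA, a guard cell regulator, had −0.18, −0.22 and −0.22 and 0.72, 0.38 and 0.30 (−0.67 ± 0.11). SPCH and MUTE, which act earlier in the stomatal lineage, were not called (MUTE was called higher, at 0.38, without mature auxin array 3), nor were MOL1 of the cambium (0.00 ± 0.10) and EXPA7 of root hairs (0.14 ± 0.12).

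The response was broad and went both ways. Of the 22746 probe sets 7235 (31.8%) rose and 6397 (28.1%) fell, which together made 59.9% of all. In 14669 (64.5%) the values of the 2 groups did not overlap. Small differences were common: 12737 probe sets differed by less than 0.5 on the log2 scale, of which 2156 rose, 1502 fell and 9079 were not called. A rise of 2-fold or more was called in 2710 probe sets (11.9%) and a fall of 2-fold or more in 2765 (12.2%). At the far ends falls outnumbered rises, with 82 rises and 158 falls of 4 or more, and 135 rises and 218 falls between 3 and 4. The typical SE was small beside these changes, with a median of 0.10, and the median SD among replicates was 0.11 in both groups. The counts given for groups of genes are to be read against these shares.

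**Figure D1:**
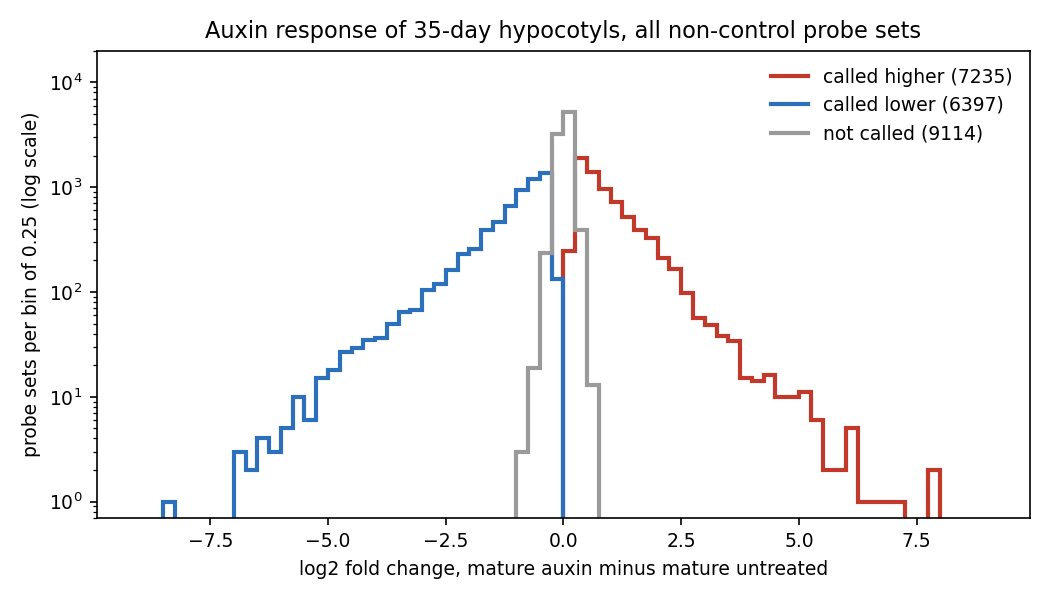
Distribution of the log2 fold change (mature auxin minus mature untreated) over the 22746 non-control probe sets, on a logarithmic count axis; colours mark probe sets called higher, called lower and not called (limma adjusted p under 0.05). Most probe sets lie within 1 of 0, and the left tail below −4 holds 158 probe sets against 82 in the right tail above 4.

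Calls were spread over the kinds of probe set and the nuclear chromosomes. Among probe sets with 1 gene 30.7% rose and 25.0% fell, and among the 8730 with no gene listed 33.6% rose and 32.9% fell. The gene lists draw mostly on the 1580 probe sets with 1 gene and a symbol, of which 29.7% rose and 35.4% fell. On the 5 nuclear chromosomes the share that rose ran between 27.0% and 32.7%, and the share that fell between 22.3% and 25.6%. The chloroplast chromosome differed, with 57 of 69 probe sets lower and 0 higher. For 146 genes with more than 1 probe set, all probe sets rose in 28 genes, all fell in 28, none was called in 34, some but not all were called in one direction in 51, and calls went both ways in 5.

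Genes of auxin inactivation and auxin response were among the largest rises. GH3.1, a GH3 amidosynthetase, had 3.82, 3.96 and 3.62 on the mature auxin arrays, against −3.97, −4.19 and −3.95 on the mature untreated arrays. The groups lay far apart, and the change was 7.83 ± 0.10 on the log2 scale (228-fold, adjusted p = 2.4e-14). GH3.3, of the same enzyme family, had 2.09, 2.51 and 2.30 with auxin and −3.97, −4.49 and −5.27 without it (6.88 ± 0.25, adjusted p = 3.9e-11), with the 3 untreated arrays more spread than the auxin ones. WES1, also known as GH3.5, had 1.24, 1.35 and 1.04 and −3.82, −4.01 and −3.79 (33.9-fold, 5.08 ± 0.16, adjusted p = 1.3e-11). Not every conjugating enzyme followed: GH3.17 had −0.04, 0.10 and 0.04 with auxin and −0.29, 0.07 and −0.09 without it and was not called. GH3.9 fell slightly (−0.29 ± 0.08), and UGT84B1, which attaches glucose to auxin, was not called (0.04 ± 0.10). The auxin inactivation list of 6 genes thus held 3 rises and 1 fall, with a median of 2.61 beside 0.06 over all probe sets.

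Among the AUX/IAA repressors 4 of 7 measured genes rose and 1 fell, with a median of 1.23. IAA29 had 0.50, 0.61 and 0.59 with auxin, against −2.15, −2.57 and −2.31 without it, so every auxin array lay at least 2 above every untreated one (2.91 ± 0.13, adjusted p = 1.8e-10). IAA30 had 1.1, 1.20 and 1.52 and −1.21, −1.1 and −1.25 (2.46 ± 0.12), IAA20 0.98, 1.11 and 0.87 and −0.97, −0.95 and −0.79 (1.89 ± 0.10), and IAA18 0.44, 0.49 and −0.02 and −0.92, −0.91 and −0.95 (1.23 ± 0.14). The others moved little. IAA34 fell by 0.32 ± 0.09 (SE), and IAA31 (0.11 ± 0.10) and IAA33 (0.26 ± 0.13) were not called, with overlapping arrays. Without mature untreated array 3 IAA33 was called higher (0.38) and IAA34 was not called.

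Regulators of lateral root initiation rose as well. LBD29 had 3.53, 3.51 and 3.16 with auxin, against −3.14, −3.17 and −3.39 without it (6.63 ± 0.12, adjusted p = 1.2e-13). LBD16 had 2.04, 2.04 and 2.07 and −1.99, −2.20 and −2.35 and was steady on the auxin arrays (4.23 ± 0.11). PUCHI, an AP2-type factor of lateral root primordia, had 2.59, 2.70 and 3.90 and −2.17, −2.58 and −2.05; auxin array 3 lay above the other two, and the SE was larger (5.33 ± 0.27). BBM, an AP2-type factor of embryogenesis and of root stem cells, was not called (−0.02, 0.18 and 0.02 with auxin, 0.13, −0.15 and −0.18 without it). WAG2, a kinase that directs auxin efflux carriers, rose (1.44 ± 0.19). The flavin monooxygenase gene YUC6, which makes auxin, had −0.33, −0.75 and −1.01 with auxin and 0.77, 0.78 and 0.65 without it and fell (−1.43 ± 0.15), while YUC2, YUC4 and YUC11 lay between 0.02 and 0.16 and were not called.

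**Figure D2:**
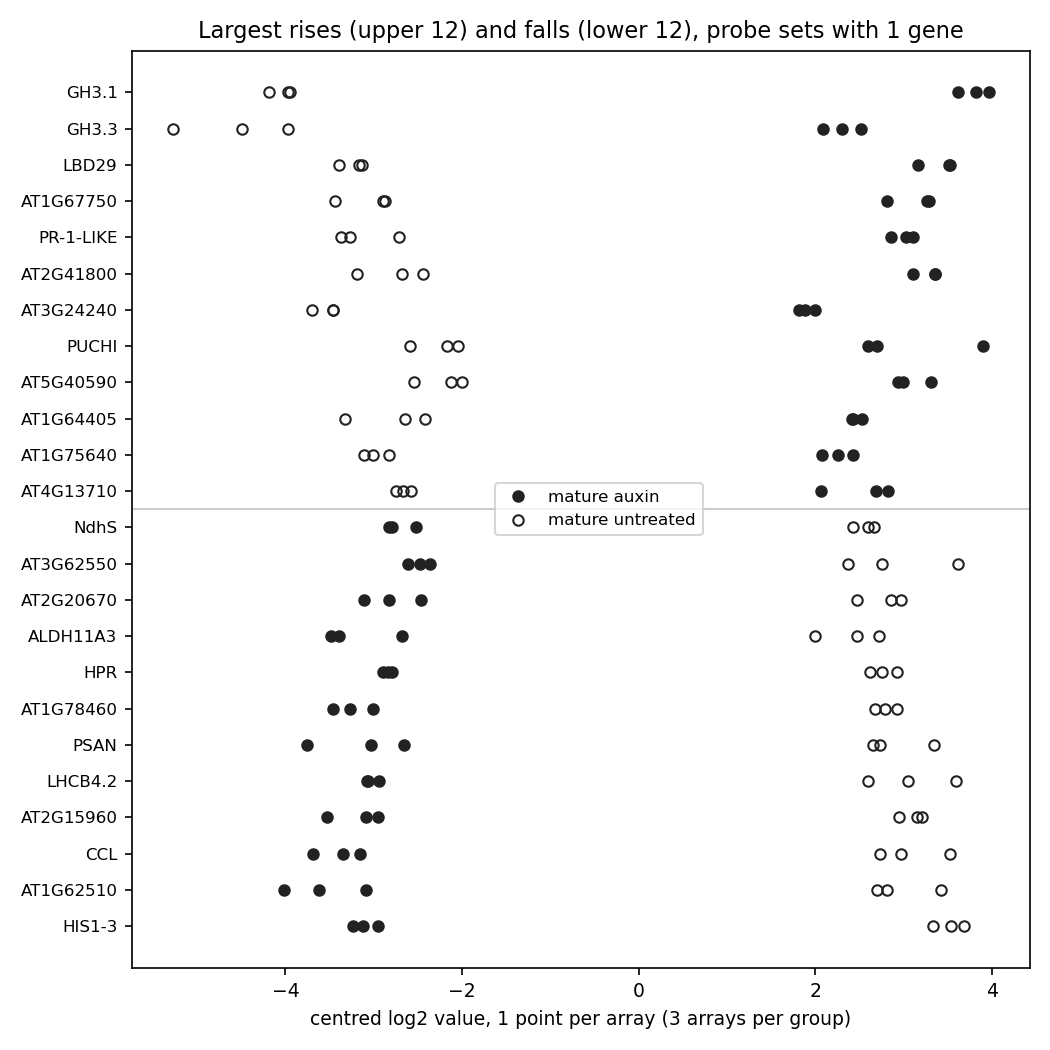
Centred log2 value on each of the 3 mature auxin arrays (filled) and 3 mature untreated arrays (open) for the 12 largest rises and the 12 largest falls among probe sets with 1 gene. In all 24 genes the auxin arrays are separated from the untreated arrays, GH3.1 rises most (7.83) and HIS1-3 falls most (−6.62).

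Several of the other largest rises belong to genes that the annotation gives only as a locus. AT1G67750 had 3.28, 3.26 and 2.81 on the auxin arrays, against −2.90, −2.87 and −3.44 on the untreated ones (6.19 ± 0.16). PR-1-LIKE, named for its likeness to the defence gene PR-1, had 2.86, 3.11 and 3.03 and −3.26, −2.71 and −3.37 (6.11 ± 0.15). AT2G41800 (6.04 ± 0.19), AT3G24240 (5.44 ± 0.13), AT5G40590 (5.30 ± 0.16), AT1G64405 (5.25 ± 0.17), AT1G75640 (5.24 ± 0.13) and AT4G13710 (5.19 ± 0.18) completed the 12 largest rises. NDB4, a mitochondrial alternative NADH dehydrogenase, had 2.51, 2.12 and 1.85 and −2.19, −1.99 and −1.85 (18-fold, 4.17 ± 0.14), and its relative NDB2 rose by 2.73 ± 0.19. GSTU25, a glutathione S-transferase, had 3.08, 2.85 and 2.83 and −1.36, −1.61 and −1.63 (4.45 ± 0.14). CLE44, whose peptide acts on the vascular cambium, had 1.66, 1.59 and 1.61 and −1.41, −1.49 and −1.76 (3.17 ± 0.10), whereas CLE41, which encodes the same peptide, fell (−0.68 ± 0.11).

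Genes of cell division rose together. Of 7 measured genes of mitosis and cytokinesis 6 rose and 1 fell (median 1.98), and of 15 further mitosis genes 12 rose and 3 fell (median 1.06). AUR1 encodes an Aurora kinase of the spindle and the new cell wall and had 1.15, 1.1 and 1.37 with auxin, against −1.74, −1.62 and −1.81 without it (2.93 ± 0.10, adjusted p = 1.7e-11). The Aurora kinases AUR2 and AUR3 had 0.80, 0.77 and 1.01 and 1.06, 0.63 and 0.95 with auxin, against −1.65, −1.36 and −1.49 and −1.09, −1.34 and −1.06 without it. All 3 kinases were separated between the groups by more than 1.5. The spindle checkpoint genes BUB3.1 (1.80 ± 0.09), BUB3.2 (1.98 ± 0.15) and BUBR1 (1.91 ± 0.11) rose by similar amounts. The gene of the list that fell was ATMAP65-6, a microtubule-associated protein, with −1.0, −1.01 and −1.01 and 0.89, 0.98 and 0.85 (−1.91 ± 0.10). TOPII, a DNA topoisomerase that untangles chromosomes (2.44 ± 0.12), and 3xHMG-box2, a chromosome-bound protein of dividing cells (2.40 ± 0.13), led the further genes. The cell cycle regulator SKP2A, an F-box protein, had −0.39, −0.39 and −0.50 with auxin, against 1.65, 1.52 and 1.53 without it, and fell (−1.99 ± 0.08), while FBL17, another F-box protein, rose (0.81 ± 0.10).

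Replication and chromatin genes moved with them. Every one of the 5 measured genes of DNA replication rose (median 2.06). PRL, the MCM7 subunit of the replicative helicase, had 0.74, 0.86 and 1.14 on the auxin arrays, against −1.76, −1.89 and −1.77 on the untreated arrays (2.72 ± 0.12, adjusted p = 2.5e-10). The DNA polymerase alpha genes POLA3 (2.45 ± 0.10) and ICU2 (2.06 ± 0.13), the polymerase delta gene POLD3 (1.55 ± 0.09) and the GINS complex gene PSF2 (0.87 ± 0.12) followed. Of 8 histone genes 6 rose and 2 fell. HTR12, the centromeric histone H3, had 1.22, 0.93 and 1.35 and −1.57, −1.09 and −1.04 (2.40 ± 0.15), and the H2B genes HTB2, HTB1, HTB11 and HTB4 rose by between 1.01 and 2.15. The largest fall among probe sets with 1 gene was also that of a histone: HIS1-3, a linker histone known from drought responses, had −3.12, −2.95 and −3.23 with auxin, against 3.33, 3.54 and 3.68 without it (98.2-fold lower, −6.62 ± 0.10, adjusted p = 4.2e-14). HON4, a gene of the linker histone type, fell too (−0.65 ± 0.10).

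Of 14 helicase and recombination repair genes 8 rose and 1 fell, with a median of 0.87. TOP3A, a topoisomerase that resolves recombination intermediates, had 0.32, 0.41 and 0.63 and −1.3, −1.44 and −1.16 (1.75 ± 0.11). FANCM, a helicase that limits crossovers, rose by 1.36 ± 0.12 and the checkpoint clamp gene RAD9 by 1.33 ± 0.10. The gene that fell was RAD4, of nucleotide excision repair (−0.73 ± 0.08). Of 9 meiosis genes 3 rose and 0 fell, with a median of 0.17, and 1 rose without the arrays of low bioC signal. Of 15 genes of chromatin remodelling ATPases (by probe set) 6 rose and 2 fell.

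**Figure D3:**
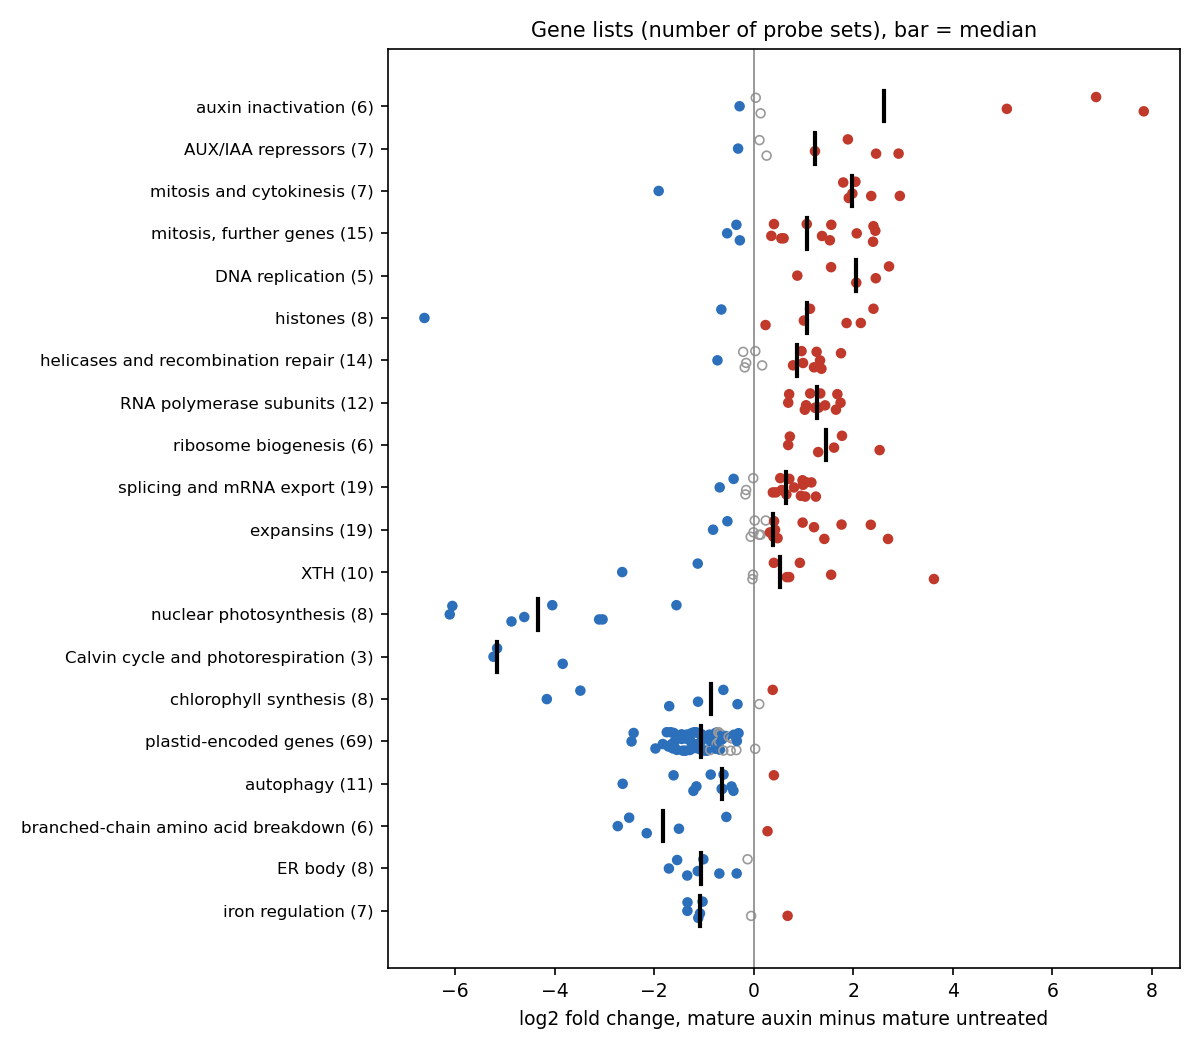
Log2 fold change (mature auxin minus mature untreated) of each measured probe set in 20 gene lists; filled points were called and open points not (limma adjusted p under 0.05), and the bar marks the list's median. Lists of cell division, replication and RNA synthesis lie mostly right of 0, lists of photosynthesis, branched-chain amino acid breakdown and autophagy mostly left of it.

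The machinery of RNA synthesis and ribosome assembly rose almost without exception. All 12 measured RNA polymerase subunits rose (median 1.26), all 6 ribosome biogenesis genes rose (median 1.45), and of 10 genes of the nucleolus and rRNA processing 8 rose and 0 fell (median 1.36). NRPA1, the largest subunit of the polymerase that copies ribosomal RNA, had 0.81, 0.79 and 0.72 with auxin, against −0.80, −0.84 and −1.08 without it (1.68 ± 0.09). NRPB9B, a subunit of the polymerase that makes messenger RNA, had 0.77, 0.71 and 1.14 and −0.84, −0.87 and −0.91 (1.74 ± 0.14), and NRPB12, a small subunit that polymerases share, rose by 1.65 ± 0.10. AT3G09720, listed in RefSeq as RNA helicase 57, had 1.20, 1.49 and 1.38 and −1.19, −1.13 and −1.19 (2.53 ± 0.09, adjusted p = 2.9e-11), and the nucleolar gene YAO 1.15, 1.12 and 1.14 and −1.28, −1.24 and −1.37 (2.43 ± 0.10). AT5G14520, listed as PESCADILLO, a nucleolar protein of large-subunit assembly, rose by 1.61 ± 0.08. The exosome subunits RRP41 (1.29 ± 0.07) and RRP41L (1.77 ± 0.10), which trim RNA, rose as well.

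Genes of splicing and RNA export rose too, by less: of 19 probe sets 14 rose and 2 fell, with a median of 0.66. LSM1B, of the ring that starts mRNA decay, had 0.57, 0.39 and 0.40 with auxin and −0.62, −0.79 and −0.97 without it (1.25 ± 0.10), and Y14, of the exon junction complex, 0.48, 0.41 and 0.45 and −0.75, −0.74 and −0.65 (1.16 ± 0.07). The splice site factors U2AF35B (−0.68 ± 0.08) and ATU2AF35A (−0.41 ± 0.11) were the ones that fell. The chaperonin genes Cpn60beta2 (1.49 ± 0.13) and Cpn60beta3 (1.28 ± 0.09), whose complex folds chloroplast proteins, rose, whereas Cpn60beta4 was not called (−0.13 ± 0.20), except as a fall of −0.54 when the low-bioC arrays were left out. In the citric acid cycle and around it 6 of 16 probe sets rose and 4 fell. SDH1-1, a succinate dehydrogenase subunit, rose (1.03 ± 0.09), and the ATP-citrate lyase genes ACLA-3 (−1.21 ± 0.07) and ACLB-1 (−0.46 ± 0.09), which make cytosolic acetyl-CoA, fell.

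Genes of photosynthesis fell together and far. All 8 genes of the nuclear photosynthesis list and all 3 of the Calvin cycle list fell, with medians of −4.33 and −5.16, the lowest of the 80 gene lists with 3 or more probe sets. The lists do not hold every measured gene of this kind, and NdhS, given below, is outside them. LHCB4.2, an antenna protein of photosystem II, had −3.06, −2.94 and −3.08 with auxin, against 3.05, 2.60 and 3.60 without it (69-fold lower, −6.11 ± 0.20). Its relatives LHCB4.1 (−4.05 ± 0.12) and LHCB4.3 (−1.55 ± 0.12) fell less. PSAN of photosystem I had −3.03, −3.75 and −2.65 and 2.73, 2.65 and 3.34 (−6.06 ± 0.23, adjusted p = 4.7e-11), and PSAE-1 of the same complex fell by 4.61 ± 0.16. The photosystem II genes PSBW (−4.87 ± 0.13) and PSBY (−3.11 ± 0.14), PGRL1B of cyclic electron flow (−3.04 ± 0.09) and NdhS of the chloroplast NDH complex (−5.28 ± 0.14) fell too. RCA, which activates Rubisco, had −2.40, −2.58 and −2.47 and 2.74, 2.40 and 3.09 (−5.23 ± 0.14). PRK, which regenerates the acceptor of carbon dioxide, had −2.46, −2.72 and −2.61 and 2.42, 2.30 and 2.96 (−5.16 ± 0.16), and SBPASE of the same cycle fell by 3.84 ± 0.16.

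Enzymes next to photosynthesis followed. HPR, the hydroxypyruvate reductase of photorespiration, had −2.89, −2.79 and −2.84 on the auxin arrays and 2.76, 2.62 and 2.93 on the untreated arrays (−5.61 ± 0.10, adjusted p = 1.2e-13). ALDH11A3, a non-phosphorylating glyceraldehyde-phosphate dehydrogenase, had −2.68, −3.39 and −3.48 and 2.48, 2.00 and 2.72 (−5.58 ± 0.25). The annotation gives other large falls only as a locus or symbol, among them AT1G62510 (−6.55 ± 0.23), CCL (−6.47 ± 0.18), AT2G15960 (−6.29 ± 0.18) and AT1G78460 (−6.04 ± 0.14). In chlorophyll synthesis 6 of 8 measured genes fell, 1 rose and 1 was not called. HEMA1 is not among the 8, so step and family member cannot be told apart. PORB, of the light-dependent step (−4.16 ± 0.17), CHLM (−3.48 ± 0.13) and CHLI2 (−1.70 ± 0.12), of the magnesium branch, fell most, the earlier HEME2 (−1.12 ± 0.11), HEME1 (−0.61 ± 0.09) and HEMB1 (−0.33 ± 0.08) fell less, and of the entry enzymes HEMA3 rose slightly (0.38 ± 0.12) and HEMA2 was not called (0.11 ± 0.07).

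Genes encoded in the plastid itself fell in 57 of 69 cases and rose in 0, with a median of −1.06 and a range of −2.46 to 0.03, a smaller shift than in the nuclear genes. psbB, a core protein of photosystem II, had −2.1, −1.14 and −1.63 with auxin, against 0.62, 0.21 and 1.67 without it; the untreated arrays differed among themselves by more than 1, and the SE was wide (−2.46 ± 0.36, adjusted p = 3.3e-05). psbT, of the same complex, behaved alike (−2.24, −1.03 and −1.46 and 0.42, 0.32 and 1.76; −2.41 ± 0.41), and psbZ had −1.38, −1.20 and −1.08 and 0.51, 0.65 and 1.1 (−1.98 ± 0.16). Mature untreated array 3 was the highest of its group for all 3 genes. Of 23 probe sets for 16 mitochondrion-encoded genes 15 fell and 2 rose, with a median of −0.80. Several belong to nad1, and these went both ways, between a called rise of 0.38 ± 0.12 and a fall of −1.37 ± 0.24. The rises came to 0 without mature auxin array 1, and to 1 without any single untreated array or without the low-bioC arrays. There nad5, of complex I, had a probe set with −0.39, −0.46 and −0.39 with auxin, against 1.19, 1.3 and 0.93 without it (−1.56 ± 0.11), and cox1, of complex IV, had −0.13, −0.25 and −0.30 and 1.33, 1.32 and 1.21 (−1.51 ± 0.08).

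Genes of breakdown and recycling fell. Of 11 autophagy genes 10 fell and 1 rose, with a median of −0.65. ATG8E, a ubiquitin-like protein that coats the forming autophagosome, had −1.19, −1.05 and −1.1 with auxin, against 1.38, 1.61 and 1.57 without it (−2.63 ± 0.11, adjusted p = 1.1e-10). The related ATG8F (−1.61 ± 0.11) and APG8H (−1.21 ± 0.09) fell as well, and ATG8G alone rose (0.40 ± 0.13), which was not called without the arrays of low bioC signal. Of 6 genes of branched-chain amino acid breakdown 5 fell and 1 rose, with a median of −1.83. IVD, which oxidises the leucine product isovaleryl-CoA, had −1.38, −1.25 and −1.20 and 1.57, 1.20 and 1.60 (−2.73 ± 0.11), and both subunits of the next enzyme, MCCA (−2.50 ± 0.17) and MCCB (−1.50 ± 0.13), fell. AT4G33150, listed in RefSeq as the lysine-degrading enzyme LKR/SDH, had −0.75, −0.71 and −0.66 and 1.72, 1.99 and 1.79 (−2.54 ± 0.09). GAMMA-VPE, a protease of the vacuole, had −0.54, −0.51 and −0.45 and 2.24, 2.28 and 2.1 (−2.71 ± 0.11). Of 13 genes of ESCRT and vacuolar sorting 7 fell and 1 rose, with a median of −0.29, and VPS2.2, the one that rose, had 1.15, 0.96 and 1.37 and −0.90, −0.79 and −0.79 (1.99 ± 0.15). SAG29, a sugar exporter gene known from senescence, rose, with 3.11, 3.05 and 2.72 with auxin and −0.43, 0.09 and 0.71 without it (2.84 ± 0.32). The other 6 of the 7 genes in its starvation and senescence list fell. They were IVD, MCCA, MCCB and AT4G33150, already given, BCAT4, which is also in the glucosinolate list, and SAG101 (−0.73 ± 0.10).

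Stress and defence genes were mixed, with some very large falls. The shares over all probe sets with 1 gene and a symbol were 29.7% higher and 35.4% lower. Of 15 dehydration and abscisic acid genes 7 fell and 4 rose, with a median of −0.23. The falls include HIS1-3, already counted among the histones, which has the lowest value of this list (−6.62). COR47, a dehydrin, had −2.50, −2.69 and −2.83 with auxin, against 1.1, 1.28 and 1.36 without it (15.2-fold lower, −3.92 ± 0.13), and AT1G54410, listed as the dehydrin HIRD11, −1.47, −1.51 and −1.09 and 1.27, 1.48 and 1.69 (−2.84 ± 0.13). In the other direction AT2G46140, listed as LEA27, had 2.44, 2.41 and 2.36 and −1.38, −1.17 and −1.36 (3.71 ± 0.12). PDF1.4, of the plant defensin family, had 0.28, 0.53 and 0.62 and 4.12, 3.96 and 4.13 (−3.60 ± 0.10), while PDF1.2, of the same family, rose (1.14 ± 0.15). Of 14 glutathione S-transferases 8 fell and 2 rose, with a median of −0.91, and the rises came to 1 without auxin array 1, auxin array 2 or untreated array 3. GSTU26 (−3.40 ± 0.12), GSTU18 (−2.99 ± 0.13) and GSTU27 (−2.61 ± 0.13) fell most, against the rise of GSTU25 given above. Of 23 cytochrome P450 genes 11 fell and 0 rose, but 1 rose without auxin array 1 and 2 without auxin array 3. Most of the 23 are CYP71B genes, as are all that fell except CYP84A4, so the counts do not describe the whole P450 family. CYP71B34 had −3.40, −2.95 and −3.06 and 0.12, 0.20 and −0.01 (−3.24 ± 0.12).

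The ER body is a store of beta-glucosidase and lectins in cells of the Brassicaceae that serves in defence. Of its 8 measured genes 7 fell and 0 rose, with a median of −1.07. NAI1, the bHLH factor that drives them, had 0.03, 0.18 and 0.22 with auxin, against 0.77, 1.62 and 1.07 without it (−1.01 ± 0.18), and NAI2, needed to form the body, −0.03, −0.04 and 0.24 and 1.09, 1.32 and 1.14 (−1.13 ± 0.10). The jacalin-related lectins JAL33 (−1.71 ± 0.13), JAL34 (−1.54 ± 0.14), JAL22 (−1.34 ± 0.14) and JAL23 (−0.69 ± 0.13) fell, and so did PYK10, the main beta-glucosidase, by a small amount (−0.34 ± 0.10). In the glucosinolate list 4 of 7 genes fell and 1 rose. BCAT4, of side chain elongation, had 0.39, 0.66 and 1.14 and 3.00, 2.44 and 3.20 (−2.15 ± 0.38), with a wide spread in both groups. AOP1 (−1.59 ± 0.10), the importer GTR2 (−0.90 ± 0.08) and UGT74B1 (−0.57 ± 0.15) fell, and the importer GTR1 rose (0.41 ± 0.10). MYC3 and MYC4, jasmonate-responsive factors that act on glucosinolate genes, had −0.63, −0.43 and −0.13 and −0.92, −0.60 and −0.64 with auxin, against 1.27, 1.28 and 1.14 and 1.48, 1.28 and 1.24 without it (−1.63 ± 0.12 and −2.05 ± 0.13).

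Iron regulators of the bHLH family fell in 5 of 7 cases and rose in 1, with a median of −1.08. PYE, which represses iron storage genes under deficiency, had −0.02, −0.16 and −0.31 on the auxin arrays and 0.77, 1.04 and 0.77 on the untreated arrays (−1.03 ± 0.10). BHLH101 (−1.33 ± 0.14), bHLH121 (−1.33 ± 0.09), bHLH104 (−1.11 ± 0.09) and bHLH115 (−1.08 ± 0.09) fell by like amounts, bHLH34 rose (0.68 ± 0.13) and ILR3 was not called (−0.05 ± 0.09). In the whole bHLH list 8 of 13 fell and 2 rose. Of 17 bZIP factors 9 fell and 2 rose, with a median of −0.38. BZIP24 had −0.31, −0.24 and −0.04 and 1.0, 1.45 and 1.27 (−1.44 ± 0.12), and bZIP44, which rose, 0.47, 0.48 and 0.82 and −0.52, −0.47 and −0.94 (1.24 ± 0.14). The WRKY factors WRKY53 (1.41 ± 0.17), WRKY6 (1.24 ± 0.13) and WRKY47 (0.63 ± 0.11) rose, 4 of 7 in all with 1 lower. MADS box genes moved little: 32 of 42 probe sets were not called, 5 rose and 5 fell, and none reached 2-fold. Without the arrays of low bioC signal 3 rose and 2 fell, and leaving out 1 mature array at a time gave between 2 and 4 rises and between 2 and 5 falls.

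Hormone receptors and responses other than auxin moved too. The gibberellin receptors GID1A (−1.93 ± 0.09) and GID1C (−1.62 ± 0.10) fell, and GID1B rose (0.49 ± 0.10). GID1A had −0.60, −0.69 and −0.57 with auxin, against 1.21, 1.44 and 1.29 without it. BRL1, a brassinosteroid receptor of vascular cells, had 0.66, 0.82 and 1.15 and −0.71, −0.42 and −0.62 (1.46 ± 0.12), and EIN3, the main ethylene response factor, −0.46, −0.50 and −0.41 and 0.57, 0.59 and 0.43 (−0.99 ± 0.09). Of 6 cytokinin response genes 1 fell, ARR15 (−0.61 ± 0.17), and 5 were not called. Among organ boundary and polarity genes 7 of 18 rose and 1 fell. LAS, a regulator of side shoot formation, had 1.09, 1.02 and 0.89 and −0.49, −0.86 and −0.47 (1.60 ± 0.13), SHI, of a small family that promotes auxin synthesis, 0.77, 0.95 and 1.35 and −0.03, 0.03 and −0.22 (1.1 ± 0.14), and LEP, an AP2-type factor, 0.35, 0.20 and 0.69 and −0.51, −0.62 and −0.50 (0.96 ± 0.13).

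Wall-loosening genes rose more often than they fell. Of 19 expansins and expansin-like genes 11 rose and 2 fell, with a median of 0.39; without the arrays of low bioC signal these counts were 6 and 0, and without mature untreated array 1 alone 7 rose. EXPB2 had 1.53, 1.72 and 1.14 with auxin, against −1.46, −1.3 and −0.95 without it (2.70 ± 0.15), EXPA20 1.18, 1.19 and 1.44 and −0.92, −1.02 and −1.31 (2.35 ± 0.11), and EXPA15 1.58, 1.60 and 1.39 and −0.16, −0.26 and −0.31 (1.76 ± 0.12). Both falls were in the expansin-like A group, EXLA1 (−0.53 ± 0.17) and EXLA3 (−0.82 ± 0.21). Of 10 XTH genes, whose enzymes cut and rejoin xyloglucan, 6 rose and 2 fell. XTH20 had 2.31, 2.03 and 1.53 and −1.71, −1.75 and −1.53 (3.62 ± 0.15), whereas XTH32 had −2.68, −2.31 and −2.34 and 0.14, 0.34 and 0.12 (−2.64 ± 0.17). Of 15 endoglucanase genes of family GH9 8 rose and 1 fell, led by GH9B13 with 2.42, 2.45 and 2.54 and −0.83, −1.11 and −1.55 (3.63 ± 0.17).

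Genes that build or decorate the wall were divided, as were all probe sets with 1 gene and a symbol (29.7% rose and 35.4% fell). Of 8 cellulose synthase-like genes 6 rose and 0 fell, by less than 1 each, led by the xyloglucan backbone enzymes CSLC5 (0.91 ± 0.12) and CSLC04 (0.84 ± 0.15). Of 24 TBL probe sets, a family that acetylates wall polymers, 9 rose and 8 fell (5 and 8 when the low-bioC arrays were left out). TBL41 had 0.66, 1.04 and 1.41 with auxin and −1.02, −0.76 and −0.66 without it (1.85 ± 0.17), and TBL25 −1.89, −1.86 and −1.77 and 0.67, 0.94 and 0.85 (−2.66 ± 0.10). Secondary wall and lignin genes gave 2 rises, 2 falls and 4 without a call, and none reached 2-fold. The class III peroxidase PRX52, an enzyme of lignin formation, had 2.20, 1.86 and 2.20 and −1.24, −1.51 and −1.24 (3.42 ± 0.12) and Prx37 1.87, 1.87 and 2.55 and −1.22, −0.20 and −1.06 (2.92 ± 0.27), while AT5G66390, listed as a peroxidase, fell (−1.26 ± 0.24). Among beta-glucosidases and beta-galactosidases 10 of 23 fell and 4 rose. BGLU45, which acts on lignin precursors, had −1.17, −0.53 and −1.03 and 2.99, 3.49 and 3.52 (19-fold lower, −4.25 ± 0.20).

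Cytoskeletal and transport families also split. Among all probe sets with 1 gene and a symbol 29.7% rose and 35.4% fell, and the microtubule counts lie near those shares. Of 36 microtubule-associated genes 11 rose and 12 fell, with a median of 0.06, and the tubulin gene TUB7 rose most (1.73 ± 0.12). Of 22 genes of the actin network 6 rose and 9 fell (3 and 9 when the low-bioC arrays were left out). ACT11, an actin, had −0.17, −0.26 and −0.16 with auxin, against −1.69, −1.74 and −1.81 without it (1.55 ± 0.08), and the actin-bundling LIM proteins WLIM1 (−1.71 ± 0.08) and WLIM2b (−1.67 ± 0.07) fell. Of 21 sugar transporters 7 fell and 4 rose. SWEET11, a sucrose exporter of phloem loading, had −1.70, −1.81 and −2.07 and 2.18, 1.36 and 1.68 (−3.60 ± 0.19), against rises of SWEET13 (1.48 ± 0.18) and SWEET14 (1.41 ± 0.14). Of 12 nitrate, ammonium and peptide transporters 5 fell and 2 rose. AT1G59740, listed as NPF4.3, had 1.85, 2.06 and 2.1 and −1.36, −1.61 and −1.75 (3.58 ± 0.15), and AT3G21670, listed as NPF6.4, −1.0, −1.29 and −0.92 and 1.56, 0.92 and 2.11 (−2.60 ± 0.23). Of 51 UDP-glycosyltransferases 12 rose and 19 fell, and UGT73B1 had −1.46, −1.51 and −1.52 and 2.31, 2.24 and 2.34 (−3.79 ± 0.13).

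The remaining question was where mature hypocotyls responded otherwise than young ones. The difference, the mature response minus the young response, was tested in the same limma fit and was called in 7962 of 22746 probe sets (35.0%), 3973 positive (17.5%) and 3989 negative (17.5%). Without the arrays of low bioC signal the count was 4336. The 2 responses share no array. A positive difference means a larger rise, or a smaller fall, in mature hypocotyls.

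Most division genes had a called difference. In the mitosis and cytokinesis list 6 of 7 genes had a positive difference and 1 a negative one, and of the 15 further mitosis genes 9 had a positive difference and 0 a negative one. AUR1 changed by 2.93 in mature and 1.02 in young hypocotyls (difference 1.92 ± 0.14, SE; adjusted p = 3.9e-07), AUR2 by 2.36 and 0.34 (2.02 ± 0.16) and AUR3 by 2.04 and 0.37 (1.67 ± 0.18). TOPII changed by 2.44 in mature and 1.02 in young hypocotyls (1.42 ± 0.18), and HTR12 by 2.40 and 1.01 (1.39 ± 0.21). When the low-bioC arrays were left out, the first list had 5 positive and 0 negative differences and the second 7 and 0. For none of the 12 RNA polymerase subunits was a difference called, against 1 without the arrays of low bioC signal. GH3.1, LBD16, LBD29, PUCHI and IAA29 had no called difference either, but those of LBD16 and LBD29 lay near the threshold. With array weights both were called (−0.40 and 0.41). LBD16 was also called without mature untreated array 3 (−0.45) or young untreated array 1 (−0.45), and LBD29 without mature auxin array 3 (0.42). The 95% interval of the difference, before any adjustment, ran between −0.15 and 0.49 for GH3.1, between −0.70 and −0.03 for LBD16, between −0.05 and 0.66 for LBD29, between −0.32 and 1.34 for PUCHI and between −0.17 and 0.60 for IAA29, and a missed threshold does not show that the responses were alike.

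**Figure D4:**
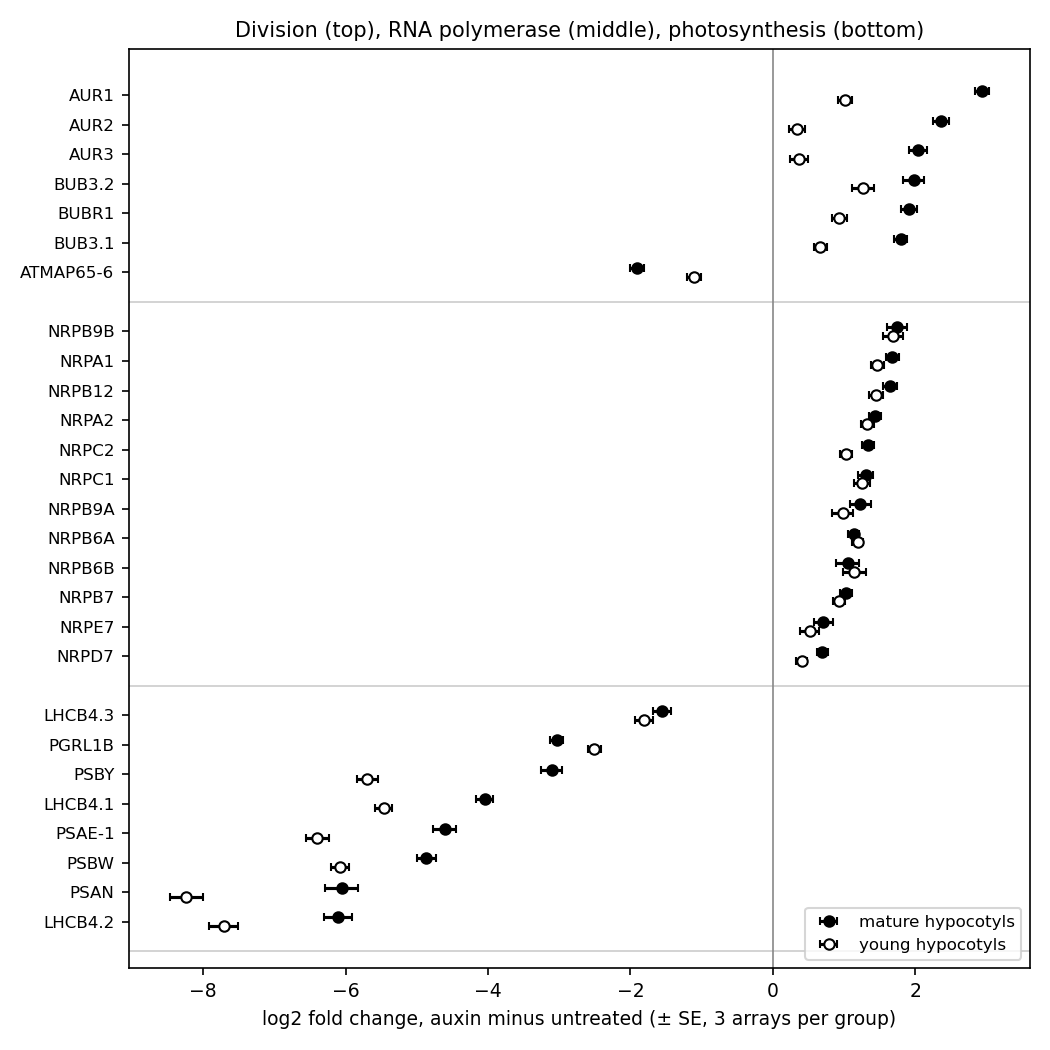
Auxin response (log2 fold change ± SE, n = 3 arrays per group) in mature hypocotyls (filled) and young hypocotyls (open) for genes of division, RNA synthesis and photosynthesis. The Aurora kinases respond more in mature hypocotyls, no RNA polymerase gene has a called difference, and 6 of the 8 photosynthesis genes have a called smaller fall in mature hypocotyls, while PGRL1B falls further there.

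Most nuclear photosynthesis genes fell less in mature than in young hypocotyls. Of the 8 nuclear photosynthesis genes 6 had a positive difference and 1 a negative one, and the difference was positive in 3 of 3 Calvin cycle genes and 7 of 8 chlorophyll genes. PSBY changed by −3.11 in mature and −5.70 in young hypocotyls (2.59 ± 0.20), and PRK by −5.16 and −6.97 (1.81 ± 0.22). The chlorophyll count was 5 when the low-bioC arrays were left out. Of the 69 plastid-encoded genes, many of them photosynthesis genes, 5 had a positive difference and 0 a negative one, and none had a called difference without those arrays. The medians of the plastid-encoded genes were −1.06 in mature and −1.23 in young hypocotyls. In the TBL list 10 of 24 probe sets had a negative difference and 1 a positive one. Some genes moved in opposite directions, with a call at both ages (59.1% of all probe sets were called in young hypocotyls). RALFL34, a signalling peptide gene, changed by 1.84 in mature and −0.79 in young hypocotyls (2.63 ± 0.20). GTR2 changed by −0.90 and 1.21 (−2.12 ± 0.12), and PMEPCRF, a pectin methylesterase gene, by −1.23 and 1.38 (−2.61 ± 0.15).

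The largest called differences among probe sets with 1 gene also called in mature hypocotyls were mostly those with the larger change in young hypocotyls. AT3G46490 changed by 0.38 in mature and −4.78 in young hypocotyls (5.16 ± 0.17), AT1G09750 by −0.89 and −5.94 (5.04 ± 0.34), and AT1G71695 by 0.85 and −3.92 (4.78 ± 0.14). AT1G12080 and AT5G45670 differed from these in that the large change was the mature one, 4.07 against −0.46 (4.53 ± 0.25) and 3.36 against −0.64 (4.0 ± 0.50). AT1G12080 had −0.87, −0.63 and −0.96 on the mature auxin arrays and −4.51, −4.75 and −5.40 on the mature untreated arrays. AT4G37220 changed by −1.74 and −5.48 (3.74 ± 0.32). On the negative side AT4G36430 changed by −0.83 in mature and 4.47 in young hypocotyls (−5.30 ± 0.27), AT5G57785 by −2.96 and 1.52 (−4.47 ± 0.28), and AT1G22440 by −0.55 and 3.74 (−4.29 ± 0.24). AT1G68850 changed by 1.29 and 5.46 (−4.17 ± 0.25), AT1G74460 by 0.68 and 4.74 (−4.07 ± 0.35), and AT3G13650 by 1.44 and 5.47 (−4.02 ± 0.20).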

How the data were processed

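RNA of Arabidopsis hypocotyls was measured on 12 Affymetrix ATH1 arrays, 3 per group. The authors deposited a table of log2 values made with RMA, per the submitters' processing notes; the version, the chip definition and the log base are not given in the sources used here, and the values were read as log2 because RMA gives log2. In the deposited table the median over the 12 arrays is 0 for every probe set, to 5 decimals, so levels cannot be compared between probe sets. The labels call the arrays biological replicates, and their number limits the precision.

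Of 22810 probe sets 64 controls were left out of the tests, and the rest entered limma 3.58.1 in R 4.3.3 (lmFit and eBayes, 4 group means, 12 arrays, 8 residual and 5.17 prior degrees of freedom). P-values were two-sided and Benjamini-Hochberg adjusted over the 22746 probe sets, with a threshold of 0.05. The code was tested on simulated data. Gene names come from the platform annotation and from RefSeq (TAIR10.1), to which 13436 of the 13513 probe sets with 1 gene matched; 503 list several genes and 8730 none.

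The members and gene lists were chosen with earlier results of these data known. Of the 92 lists, 54 were written with the design and 38 after the annotation was read, and 80 have 3 or more probe sets. The genes named are the 12 largest rises and falls without overlap between groups, up to 3 rises and 3 falls per list (all members of lists of up to 8), the 6 largest differences between ages in each direction, and GH3.1, GH3.3, LBD16, LBD29, PUCHI, IAA29, IAA30 and AUR1. ARR15, FACT and other cell type markers are named as markers or list members. Lists were described by counts and medians with no set test.

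The deviations of same-numbered arrays correlated at 0.13, −0.06 and −0.08 between mature auxin and mature untreated, at 0.25, 0.16 and 0.12 between mature auxin and young auxin, and at 0.22, 0.07 and 0.03 between mature untreated and young untreated. Since they did not all pass 0.1, replicate numbers were not used as pairs. Alternatives were the mature arrays alone, equal array medians, array weights, a robust spread, a minimum of 1.5-fold, a replicate block, leaving out each array, and leaving out the 4 untreated arrays of low bioC signal. Promoter and probe sequences were not analysed here.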

Additional observations from a re-analysis of the deposited data

Results flagged for a closer look

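The responses of mature and young hypocotyls differed by test (limma, adjusted p under 0.05) in 7962 probe sets, and the following values from the comparison belong to that set. Positive values mean a larger rise or smaller fall in mature hypocotyls. Among lists, mitosis and cytokinesis had 6 positive and 1 negative differences, the further mitosis genes 9 and 0, nuclear photosynthesis 6 and 1, the Calvin cycle 3 and 0, chlorophyll synthesis 7 and 0, plastid-encoded genes 5 and 0, and TBL wall acetylation 1 and 10.

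Among genes of division the difference in log2 response was 1.92 for AUR1, 2.02 for AUR2, 1.67 for AUR3, 1.42 for TOPII and 1.39 for HTR12. Among photosynthesis genes it was 2.59 for PSBY and 1.81 for PRK. Among the genes that moved in opposite directions at the 2 ages, RALFL34 differed by 2.63, GTR2 by −2.12 and PMEPCRF by −2.61. Some of the genes that follow, such as AT3G46490 and AT4G36430, also had changes of opposite sign. Among probe sets with 1 gene that were also called in mature hypocotyls, the largest positive differences were 5.16 for AT3G46490, 5.04 for AT1G09750, 4.78 for AT1G71695, 4.53 for AT1G12080, 4.0 for AT5G45670 and 3.74 for AT4G37220. The largest negative differences of the same set were −5.30 for AT4G36430, −4.47 for AT5G57785, −4.29 for AT1G22440, −4.17 for AT1G68850, −4.07 for AT1G74460 and −4.02 for AT3G13650.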

How the results depend on the processing

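Against 13632 calls in mature hypocotyls, 13385 were made with equal array medians (6632 higher, 6753 lower), 14275 with array weights, 13633 with a robust spread and 13299 with the 6 mature arrays alone. Leaving out 1 mature array at a time gave 12801 to 13510 calls (6679 to 7279 higher, 6089 to 6246 lower) and 582 to 615 called list members, among them 574 to 586 of the 618. Fits without a young array were not counted for the mature comparison. For the difference between ages, leaving out 1 array of either age gave 6982 to 7856 calls, with 3489 to 3950 positive and 3466 to 3906 negative. With the replicate number as a block, 13901 were called in mature hypocotyls and 8213 differed between ages, and no gene named in the report changed its call. Same-numbered arrays correlated above 0.1 in all 3 pairs between the auxin groups of both ages, though not between the untreated groups or within mature hypocotyls. A minimum of 1.5-fold, which asks more of each probe set, left 6419 calls (3245 higher, 3174 lower), 321 list members and 2383 age differences (1169 positive, 1214 negative). With it 33 named gene responses lost their call and 191 did not. Autophagy falls went from 10 to 4, plastid-encoded falls from 57 to 26 and expansin rises from 11 to 6. XTH rises went from 6 to 2 and cellulose synthase-like rises from 6 to 1. The 8 nuclear photosynthesis falls and the 6 mitosis and cytokinesis rises stayed. Without the 4 arrays of low bioC signal, a fit with fewer arrays, 4336 age differences were called (2276 positive, 2060 negative).

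Of the named genes with a call, ATG8G, EXLA1, EXLA3, JAL23, ATU2AF35A, AT1G74460, AT1G22440 and AT1G09750 were not called without the arrays of low bioC signal. AT1G74460, EXLA1, AT1G22440, ATG8G and IAA34 also lost the call when single arrays were left out, and the cause was not tested. For AT1G74460 these were every mature array except auxin array 3 (0.52 to 0.70). For EXLA1 they were auxin array 1 and untreated arrays 1 and 2 (−0.46, −0.43 and −0.45), for AT1G22440 auxin array 1 and untreated array 2 (−0.39 and −0.35), for ATG8G auxin array 3 and untreated array 1 (0.28 and 0.32), and for IAA34 untreated array 3 (−0.25). Small list counts also moved with single arrays: bZIP rises (2) to 1, ubiquitin-specific protease falls (2) to 1, expansin falls (2) to 1, WRKY falls (1), autophagy rises (1) and branched-chain rises (1) to 0, cytokinin response rises (0) to 2, and helicase and repair falls (1) to 2. Some uncalled values near 0 changed sign with single arrays left out. Their ranges were −0.0559 to 0.0568 for YUC4, −0.0701 to 0.126 for YUC11, −0.0394 to 0.0889 for UGT84B1, −0.00138 to 0.188 for IAA31, −0.107 to 0.00092 for ILR3 and −0.331 to 0.077 for Cpn60beta4. With equal medians the values were −0.0316 (YUC4), −0.0154 (YUC11) and −0.00804 (UGT84B1), with array weights −0.0116 (YUC4) and 0.00294 (ILR3), and without the low bioC arrays −0.0401 (YUC4) and −0.0174 (YUC2). The age difference of IAA29 was −0.13 without the low bioC arrays.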

Other observations

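Genes of protein tagging and turnover went both ways, as did all probe sets with 1 gene and a symbol (29.7% rose and 35.4% fell). Of 12 ubiquitin-specific proteases, which remove ubiquitin from proteins, 6 rose and 2 fell, with UBP21 (1.84 ± 0.08) and UBP23 (1.3 ± 0.08) highest and UBP18 (−0.46 ± 0.09) lowest. Of 12 ubiquitin-conjugating enzymes 4 rose and 5 fell. UBC20 had 1.19, 0.89 and 1.54 on the mature auxin arrays and −1.21, −1.27 and −1.1 on the mature untreated arrays (2.40 ± 0.14, limma SE), and UBC28 had −0.83, −0.99 and −0.98 and 0.86, 1.0 and 0.92 (−1.86 ± 0.09). The ubiquitin ligases PUB22 (1.37 ± 0.19) and PUB23 (1.39 ± 0.19), close relatives that act in immunity and drought, rose by like amounts, and PUB24 fell (−1.1 ± 0.11). Of 10 subtilases, a family of secreted proteases, 2 rose and 3 fell, and ATSBT5.2 had −2.51, −2.33 and −1.70 with auxin, against 1.83, 1.71 and 1.90 without it (−3.99 ± 0.17).

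Signalling families moved in part, and their counts stand beside shares of 29.7% higher and 35.4% lower over probe sets with 1 gene and a symbol. Of 11 RALF-like peptide genes 4 rose and 1 fell, RALFL34 and RALFL24 (1.56 ± 0.16) most. Of 7 calmodulin-like genes 4 fell and 0 rose, CML30 furthest (−1.37 ± 0.15), and of 8 glutamate receptor-like genes 3 rose and 0 fell, of which GLR2.7 (1.36 ± 0.22) passed 2-fold. Leaving out single mature arrays brought the calmodulin-like falls down to 2 and the glutamate receptor-like rises to 1. Of 15 tetraspanins, membrane proteins that organise membrane domains, 3 rose and 5 fell, with TET3 (−1.57 ± 0.11) and TET8 (−1.51 ± 0.12) lowest. None of the 4 measured flavonoid genes was called by limma, and 0 had an unadjusted p under 0.05, but 2 were called higher with array weights or without mature auxin array 3, and 1 with the replicate block.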
